A study of Mus musculus with 4 samples.

Results

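Levels of 9 genes of the nuclear receptor network that senses lipids were examined, among the 31053 genes counted in single bone marrow (BM) macrophages with and without engulfed cancer cells. The genes were chosen by symbol, with no measured value in the rule but with earlier results of these data known. They are Pparg and Ppard of the PPAR family, Nr1h3 (LXRα) and Nr1h2 (LXRβ), the retinoid X receptors Rxra and Rxrb, the orphan receptor Nr4a1 (Nur77), and the coactivators Ppargc1a (PGC-1α) and Ppargc1b (PGC-1β). All 9 passed the filter on low counts that left 13869 genes for testing.

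Primary BM macrophages were grown with macrophage colony stimulating factor from male C57BL/6J mice of 4–6 weeks, and apoptotic cells of the mouse prostate cancer line RM1, labelled with the dye CFSE, were given to them for 16–18 h. Cells with the macrophage surface protein F4/80 and CFSE were sorted as efferocytic, and cells with F4/80 only as non-efferocytic, under normal oxygen. The paper calls the non-efferocytic cells non-engulfing in its results but BM macrophages alone in its discussion. Whether they had been given apoptotic cells is unclear, so exposure and engulfment cannot be told apart. Each of 2 experiments gave 1 library per group, so 2 efferocytic were compared with 2 non-efferocytic libraries. The study's methods give several mice per group for its macrophage experiments but tie none to a library. In the main fit p-values rest on the spread of these 4 libraries beyond the experiment, moderated by a spread borrowed from all genes. The labels name no genetic change in either group, and RNA of engulfed RM1 cells and RNA made by the macrophage cannot be told apart in an efferocytic cell.

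PPARs and LXRs are receptors that sit on DNA as partners of an RXR and switch on lipid genes when a lipid binds them. Fatty acids and their oxidised forms activate PPARs, and oxysterols, which are oxidised cholesterol, activate LXRs. In macrophages both are known for handling the fats and sterols of engulfed cells. Nr4a1 has no classical ligand and is an immediate-early gene, whose mRNA rises within a short time of a stimulus and is short-lived. PGC-1 proteins bind several of these receptors and turn on genes of mitochondria and fat oxidation.

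Of the 9 genes, 4 rose in efferocytic BM macrophages (Nr1h3, Ppargc1a, Ppargc1b and Pparg), 2 fell (Nr4a1 and Rxrb) and 3 were not called (Ppard, Rxra and Nr1h2). Calls come from the quasi-likelihood test of edgeR on UMI counts summed over the cells of each library, with the experiment as a block, adjusted over all genes at a threshold of 0.05. By the same test 38.9% of all genes tested were called, 19.9% higher and 19.0% lower, so a call alone does not set a gene apart here. The change of Nr1h3 was higher than that of 98.5% of genes tested, that of Nr4a1 higher than that of only 1.06%, and that of Pparg higher than that of 81.8%. Without the block, of the 9 genes only Nr1h3 (adjusted p = 0.0117) and Nr4a1 (adjusted p = 0.0125) were called by edgeR. Other settings named below had shares of their own. Without the block 9.27% of all genes were called higher and 7.74% lower, and counted per cell 49.9% and 4.23%. In macrophage-like clusters alone, which left out 1 large cluster of Experiment 2 as described below, the shares were 4.32% and 4.69%. After 10% of UMIs were removed as free RNA they were 10.5% and 8.16%. That 10% was a fixed share, not an estimate. For some genes it exceeded the UMIs in a library's cells, which left none. Barcodes with under 100 UMIs, whose profile was removed, held 1943 and 2351 CPM of Col2a1 in Experiment 1, against 1.14 and 0.344 CPM in cells. In Experiment 2 they held 6927 and 8255 CPM of Hbb-bs, against 32.2 and 33.5 CPM in cells. For these 2 genes 10% was far more than cells held. Calls lost or kept after this removal therefore do not show how they depend on free RNA.

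The 4 libraries held 8280 and 6695 cells (non-efferocytic and efferocytic) in Experiment 1 and 13411 and 8408 in Experiment 2, with a median of 9600 to 17475.5 UMIs per cell, higher in both efferocytic libraries. All levels below are UMIs scaled to the total of a library's cells (CPM), and fold changes are relative to the typical gene of a library. Counted per cell instead, the typical gene had a log2 fold change of 0.60 rather than -0.02, so falls smaller than about that size turned into rises. Cells of the 2 libraries of Experiment 2 shared 118 barcodes, and other pairs of libraries 14 to 23; without shared barcodes the log2 fold change was 1.09 for Nr1h3 and -2.29 for Nr4a1, against 1.10 and -2.27 with them. Of 9 macrophage markers, of which 2 were called higher and 1 lower per cell and 1 in each direction without the block, Cd68 rose, 6 fell, the F4/80 gene Adgre1 among them, and 2 were not called (summed level 7322 and 6460 CPM in non-efferocytic, 5512 and 5005 CPM in efferocytic libraries), while all 9 neutrophil lineage markers fell (summed level 953 and 705 CPM in efferocytic against 3046 and 3339 CPM in non-efferocytic libraries). All 5 monocyte markers fell too (78.9 and 61.5 against 223 and 246 CPM). Of markers that RM1 cells, a fibroblast-like carcinoma line, could carry, none of 6 epithelial ones was called (0.148 and 0.0880 CPM in Experiment 1, 9.73 and 8.16 CPM in Experiment 2), and 4 of 6 fibroblast ones fell (145 and 46.3 CPM, then 121 and 52.2 CPM). In such sums fewer cells of a kind and less RNA per cell cannot be told apart, and beyond the sets of cells given below the part of these markers was not tested.

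The sequences in front of the NR4A genes are shown because all 3 family members fell, as described below. Each is the 250 bases before the RefSeq start on GRCm38.p6, read 5′ to 3′ on the gene's strand, at chr15:101266596-101266845 on the plus strand for Nr4a1, chr2:57124004-57124253 on the minus strand for Nr4a2 and chr4:48045055-48045304 on the plus strand for Nr4a3. Capitals mark TGACG or its reverse complement CGTCA, the core of the cAMP response element (CRE), searched on both strands; a whole CRE would count as 2 overlapping cores.
Nr4a1: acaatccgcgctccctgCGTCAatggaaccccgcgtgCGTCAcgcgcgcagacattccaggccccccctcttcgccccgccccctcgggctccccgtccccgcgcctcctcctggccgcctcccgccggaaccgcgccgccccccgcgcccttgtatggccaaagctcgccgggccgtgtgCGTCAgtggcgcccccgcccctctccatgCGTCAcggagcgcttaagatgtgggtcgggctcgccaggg
Nr4a2: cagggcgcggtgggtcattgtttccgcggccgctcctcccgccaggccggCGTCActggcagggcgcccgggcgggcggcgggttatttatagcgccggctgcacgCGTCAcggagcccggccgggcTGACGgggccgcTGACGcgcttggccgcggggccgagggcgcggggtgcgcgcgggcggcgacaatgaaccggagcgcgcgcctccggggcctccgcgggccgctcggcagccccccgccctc
Nr4a3: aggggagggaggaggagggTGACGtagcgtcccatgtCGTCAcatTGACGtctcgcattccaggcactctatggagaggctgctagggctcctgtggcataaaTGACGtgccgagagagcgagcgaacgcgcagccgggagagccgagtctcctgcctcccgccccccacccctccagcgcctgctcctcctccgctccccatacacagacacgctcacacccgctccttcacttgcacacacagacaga
Each of the 3 windows held 4 cores, which begin 233, 213, 69 and 40 bases before the start in Nr4a1. The core stood at least once in 17.8% of 32851 promoter windows of the same length, and at least 4 times before some start of 44 of 27025 genes (0.163%), these 3 included. Of the immediate-early genes tested below, 13 had a window and 9 of them (69.2%) held the core, against 19.8% of all genes. A match describes letters only. The motif was chosen after the values were seen.

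The other members' windows held the core once in Ppargc1a, 49 bases before the start, and once in Rxrb, 119 bases before the start at chr17:34031812. The windows of both Nr1h3 starts, the Nr1h2 start and the Ppard start held neither this core nor the nuclear receptor core AGGTCA, which 14.0% of windows held. AGGTCA stood 28 and 9 bases before the first and second Pparg starts and in 1 of 2 Rxra windows. A RefSeq window was given for 8 of the 9 members, not for Ppargc1b.

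Nr1h3, the oxysterol receptor LXRα, rose 2.14-fold in efferocytic BM macrophages, the largest rise among the members above 1 CPM in each library. Its level was 17.0 CPM (non-efferocytic) and 35.8 CPM (efferocytic) in Experiment 1, and 19.0 and 35.7 CPM in Experiment 2. The group means were 18.0 ± 1.42 and 35.7 ± 0.0690 CPM (SD, n = 2), so the groups lay far apart and the efferocytic libraries almost coincided. The log2 fold change was 1.10 (SE 0.0884, 95% interval 0.89 to 1.30, edgeR adjusted p = 0.000141). The call was kept in 14 of 15 alternatives with all 4 libraries. It was lost in macrophage-like clusters alone (0.72, edgeR adjusted p = 0.0920) and when either non-efferocytic library was left out. At the same mix of clusters, as explained below, the ratio was 1.48 and 1.32 in Experiments 1 and 2. Nr1h3 lies on chr2:91184061-91202834 of GRCm38, minus strand, where the predicted gene Gm13783 overlaps it on the same strand.

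Nr1h2, the more widely expressed LXRβ, did not pass the test. It stood at 51.7 and 46.8 CPM in Experiment 1 (non-efferocytic, then efferocytic) and at 46.8 and 45.2 CPM in Experiment 2. Its log2 fold change was 0.01 (95% interval -0.16 to 0.18, edgeR adjusted p = 0.921), and its sign changed between settings; counted per cell it was called higher (0.63, adjusted p = 0.0302), where Nr1h3 had 1.72. The upper end of that interval lay below the lower end of the interval of Nr1h3, 0.89. In UMIs, Nr1h3 over Nr1h2 went from 0.329 to 0.765 in Experiment 1 and from 0.406 to 0.789 in Experiment 2, and such a ratio within a library does not depend on scaling. Nr1h2 (chr7:44549616-44553951, minus strand) has 1 pseudogene by name, with which reads could be shared.

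The rise of Nr1h3 was seen in depth classes too. Among cells with 10000 to 20000 UMIs it stood at 16.3 and 35.8 CPM in Experiment 1 and at 18.7 and 34.2 CPM in Experiment 2. A UMI of Nr1h3 was found in 15.9% and 40.3% of cells in Experiment 1 and in 15.2% and 40.8% in Experiment 2. Cells with at least 5000 UMIs, 7181 and 6151 in Experiment 1 and 10007 and 7903 in Experiment 2, were also thinned to 5000. Before thinning, 17.7% and 42.9% of them held a UMI of Nr1h3 in Experiment 1 and 19.1% and 42.9% in Experiment 2. After thinning the shares were 7.34% (95% exact binomial interval 6.75% to 7.97%) and 15.4% (14.5% to 16.3%), then 8.35% (7.82% to 8.91%) and 15.7% (14.9% to 16.5%). Intervals cover counting error only. Neutrophil lineage-like cells, whose clusters had medians of 16373 and 8026.5 UMIs, held a UMI of Nr1h3 in 4.00% and 8.33% of cells in Experiment 1 and in 6.25% of both groups in Experiment 2, without thinning. Barcodes with under 100 UMIs, which hold mostly free RNA, had 17.0 and 27.4 CPM of Nr1h3 in Experiment 1 and 27.9 and 37.5 CPM in Experiment 2, so its level there was also higher in efferocytic libraries, and these shares can include such RNA. With 10% of UMIs removed in that profile the log2 fold change was 1.13.

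**Figure D1:**
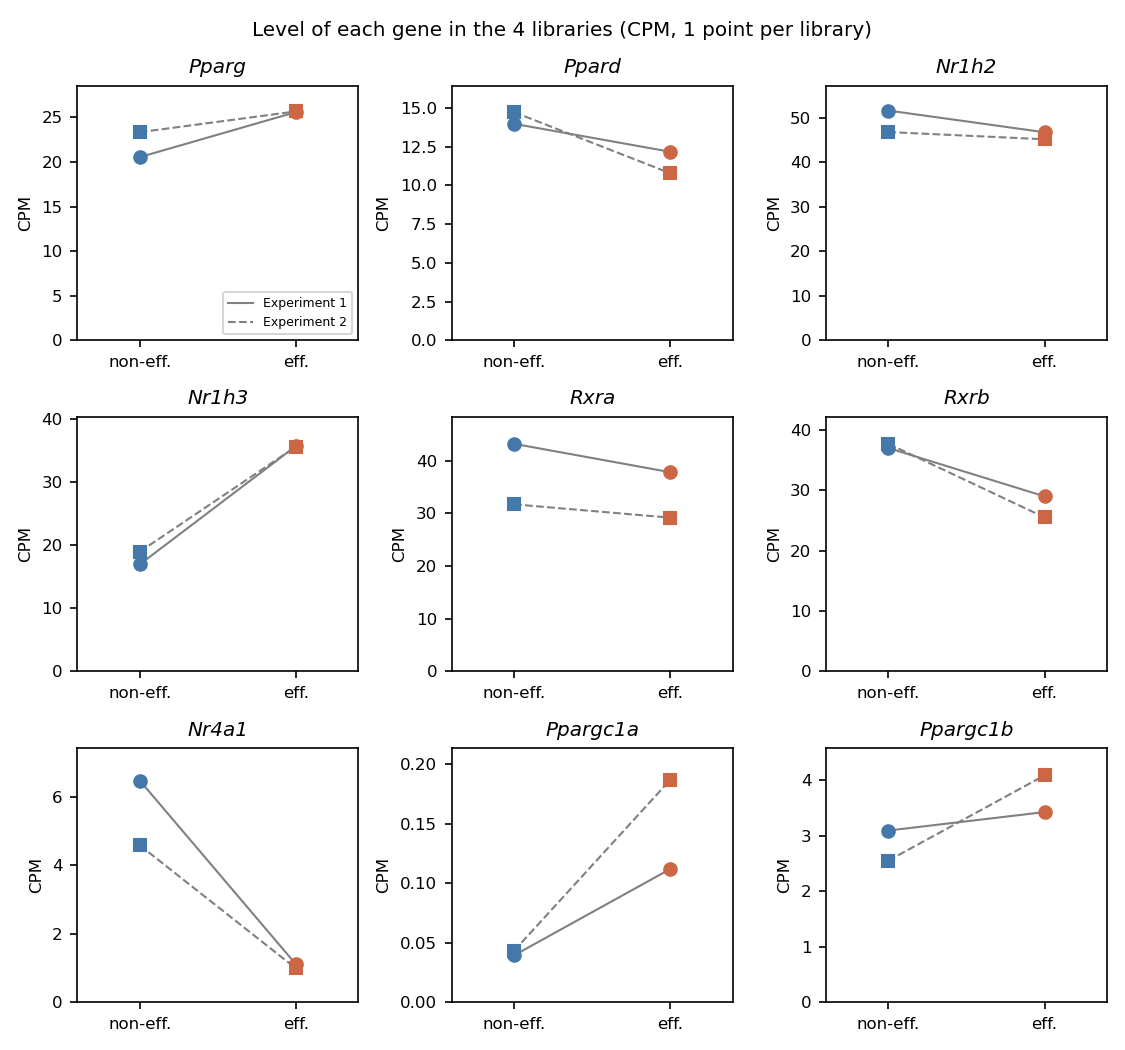
Level of the 9 genes in each of the 4 libraries, in CPM on an axis from 0, with 1 panel per gene; circles and solid lines are Experiment 1, squares and dashed lines Experiment 2, blue non-efferocytic and orange efferocytic. Nr1h3 went from 17.0 and 19.0 to 35.8 and 35.7 CPM and Nr4a1 from 6.47 and 4.58 to 1.11 and 0.992 CPM, while the Rxra groups overlapped.

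Pparg, the PPAR that drives fat uptake and storage, rose far less. Its level was 20.5 and 25.6 CPM in Experiment 1 and 23.3 and 25.7 CPM in Experiment 2. The groups did not overlap, but the lowest efferocytic and the highest non-efferocytic library were close. The log2 fold change was 0.33 (SE 0.0898, 95% interval 0.13 to 0.54, edgeR adjusted p = 0.0212). The call was lost without the block (adjusted p = 0.0797), with DESeq2 (adjusted p = 0.0564), with library totals in place of TMM (adjusted p = 0.0930), among genes of at least 10 CPM (adjusted p = 0.0659), with free RNA removed (adjusted p = 0.0921) and under each of the 4 leave-one-out fits (adjusted p = 0.115 to 0.358), and in macrophage-like clusters alone the log2 fold change was 0.06 (adjusted p = 0.849), or 0.28 (adjusted p = 0.0508) with the cluster of 1 monocyte marker added. Pparg spans chr6:115360951-115490399, plus strand.

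Ppard, the widely expressed PPAR, leaned the other way without passing the test. It stood at 14.0 and 12.2 CPM in Experiment 1 and at 14.7 and 10.8 CPM in Experiment 2. Both efferocytic libraries lay below both non-efferocytic ones, with a log2 fold change of -0.22 (95% interval -0.46 to 0.02, edgeR adjusted p = 0.128). It was called lower with library totals in place of TMM (-0.33, adjusted p = 0.0297) and among genes of at least 10 CPM (-0.31, adjusted p = 0.0375), while counted per cell it was 0.40 (adjusted p = 0.185). In UMIs, Pparg over Ppard went from 1.47 to 2.10 in Experiment 1 and from 1.58 to 2.38 in Experiment 2. Ppara, the PPAR of liver and of fat oxidation, had 0 to 3 UMIs per library and was not tested. Ppard lies at chr17:28232700-28301474, plus strand.

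**Figure D2:**
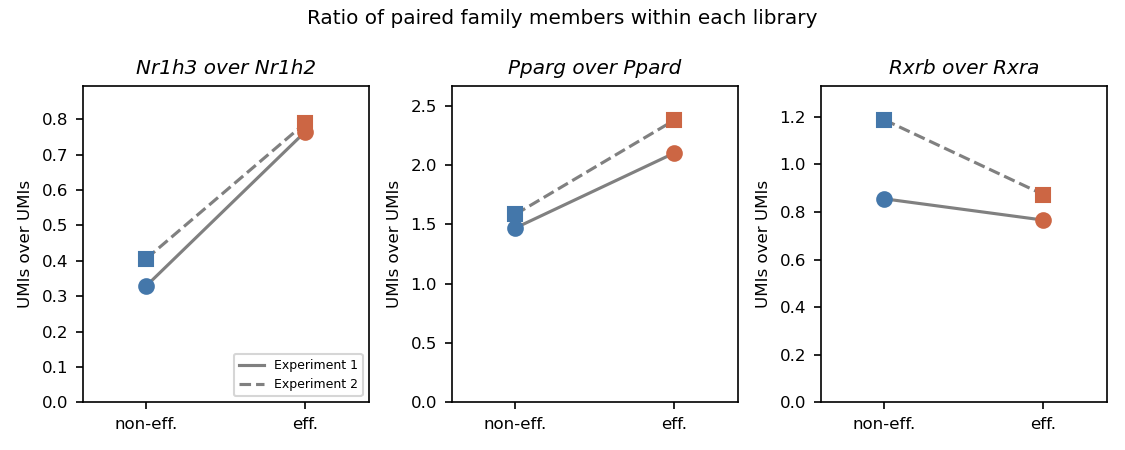
Ratio of the UMIs of related genes within each library, on axes from 0, non-efferocytic on the left and efferocytic on the right of each panel, with a line per experiment. Nr1h3 over Nr1h2 and Pparg over Ppard were higher, and Rxrb over Rxra lower, in the efferocytic library of both experiments.

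Of the RXR partners, Rxra was not called and Rxrb was called lower on the scale of the typical gene. Rxra, the main RXR of myeloid cells, stood at 43.2 and 37.8 CPM in Experiment 1 and at 31.7 and 29.2 CPM in Experiment 2. The experiments differed more than the groups, which overlapped, and the log2 fold change was -0.05 (95% interval -0.22 to 0.12, edgeR adjusted p = 0.627). It was 0.57 counted per cell (adjusted p = 0.0582) and 0.068 in macrophage-like clusters alone (adjusted p = 0.721). Rxra lies at chr2:27676440-27762957, plus strand.

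Rxrb fell from 37.0 to 29.0 CPM in Experiment 1 and from 37.7 to 25.5 CPM in Experiment 2. The groups did not overlap, and the log2 fold change was -0.35 (SE 0.0905, 95% interval -0.56 to -0.14, edgeR adjusted p = 0.0178). Counted per cell the direction turned, to 0.27 (adjusted p = 0.384), and without the block the call was lost (adjusted p = 0.0826), as it was in macrophage-like clusters alone (-0.30, adjusted p = 0.101), with free RNA removed (adjusted p = 0.0788), without either non-efferocytic library (adjusted p = 0.290 and 0.265) or without the efferocytic library of Experiment 2 (adjusted p = 0.186). Rxrb over Rxra in UMIs went from 0.856 to 0.766 and from 1.19 to 0.873. Rxrg, the RXR of muscle and brain, had 0 to 2 UMIs per library. Rxrb lies at chr17:34031812-34038399, plus strand.

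Nr4a1 fell 4.81-fold and was the lowest of the 9 genes by fold change. Its 655 and 139 UMIs in Experiment 1 and 634 and 154 in Experiment 2 gave 6.47, 1.11, 4.58 and 0.992 CPM. Both non-efferocytic libraries lay more than 4 times above both efferocytic ones, and the log2 fold change was -2.27 (SE 0.145, 95% interval -2.60 to -1.93, edgeR adjusted p = 6.35e-05). Cells with a UMI made up 5.83% and 1.84% in Experiment 1 and 3.44% and 1.65% in Experiment 2. Among cells with at least 5000 UMIs they made up 6.28%, 1.93%, 4.21% and 1.70%, and 2.87%, 0.504%, 2.17% and 0.430% after thinning to 5000 UMIs. Its level in barcodes with under 100 UMIs, given below, was above that in cells, so the shares of cells can include free RNA. Nr4a1 fell also when counted per cell, by 1.65 on the log2 scale. At the same mix of clusters, as explained below, its efferocytic level was 0.411 and 0.361 of the non-efferocytic level in Experiments 1 and 2. Nr4a1 lies at chr15:101254269-101274795, plus strand. The calls of Nr4a1 and Nr1h3 were both lost when either non-efferocytic library was left out (adjusted p = 0.0696 and 0.0743 for Nr4a1, 0.0732 and 0.0749 for Nr1h3), although the log2 fold changes stayed at -2.01 and -2.51 for Nr4a1 and 1.02 and 1.19 for Nr1h3; those fits called 2 and 0 genes of all.

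The 2 family relatives of Nr4a1, which are named here after their values were seen, fell as well. Nr4a2 (Nurr1) had 129 and 71 UMIs in Experiment 1 and 153 and 100 in Experiment 2, a log2 fold change of -0.86 (SE 0.203, edgeR adjusted p = 0.0126) that was -0.24 per cell (adjusted p = 0.512). Nr4a3 (Nor1) had 44 and 2 UMIs in Experiment 1 and 58 and 2 in Experiment 2. Its efferocytic level was 0.0368 of the non-efferocytic level in Experiment 1 (95% counting interval 0.00432 to 0.141) and 0.0307 in Experiment 2 (0.00364 to 0.116), and its fitted change passed the test (edgeR adjusted p = 0.000379). So all 3 NR4A genes were called lower, each on few UMIs. All 3 were at higher levels in barcodes with under 100 UMIs, which hold mostly free RNA, than in cells of each library; in the non-efferocytic library of Experiment 1 these barcodes had 31.7 CPM of Nr4a2 (1.27 in cells) and 4.35 CPM of Nr4a3 (0.435 in cells).

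Other immediate-early genes, which answer the same kinds of stimuli, mostly fell too. Of 16 tested, 12 fell, none rose and 4 were not called, with a median log2 fold change of -1.10 against -0.02 for all genes; 8 fell and 1 rose when counted per cell, and 3 fell without the block. With free RNA removed 5 of 15 tested fell, against 8.16% of all genes. That removal exceeded the UMIs in cells of some of these genes, such as Egr1 in both libraries of Experiment 1, and left none. This count therefore cannot show how the fall depends on free RNA. In the non-efferocytic library of Experiment 1, barcodes with under 100 UMIs had 194 CPM of Egr1, against 11.4 CPM in cells. For Klf6 these levels were 248 and 299 CPM. Zfp36, which destabilises cytokine mRNAs, stood at 162 and 47.5 CPM in Experiment 1 and at 91.6 and 25.3 CPM in Experiment 2 (log2 fold change -1.70, SE 0.0854, edgeR adjusted p = 2.95e-05). Ier3, a stress-response gene, fell by 2.23 on the log2 scale (SE 0.212, adjusted p = 0.000265) and Btg2, which slows the cell cycle, by 1.79 (SE 0.164, adjusted p = 0.000229). The immediate-early level also differed between experiments, and Fos stood at 286 CPM in the non-efferocytic library of Experiment 1 and at 48.1 CPM in that of Experiment 2.

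The coactivators of the PGC-1 family were higher in efferocytic BM macrophages at very low levels. Ppargc1a had 4 and 14 UMIs in Experiment 1 and 6 and 29 in Experiment 2, that is 0.0395, 0.112, 0.0434 and 0.187 CPM. The efferocytic level was 2.83 times the other in Experiment 1, with a 95% counting interval of 0.890 to 11.8 that includes no change, and 4.31 times in Experiment 2 (1.76 to 12.7). The log2 fold change was 1.95 (SE 0.516, edgeR adjusted p = 0.0200), and the call was lost without the block (adjusted p = 0.0546), in macrophage-like clusters alone (adjusted p = 0.139) and in each of the 4 leave-one-out fits. DESeq2 gave it no adjusted p, and with free RNA removed it did not pass the filter on low counts. Barcodes with under 100 UMIs held 1 to 3 of its UMIs per library. At the same mix of clusters, as explained below, its ratio was 1.62 and 1.23, with 1 cluster higher and 2 lower in Experiment 1 and 3 higher and 2 lower in Experiment 2. At most 0.250% of the cells of a library held a UMI. Ppargc1a lies at chr5:51454250-51567726, minus strand, and shares that strand with 3 predicted genes.

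Ppargc1b, the member of the pair linked to macrophage fat oxidation, stood at 3.09 and 3.42 CPM in Experiment 1 and at 2.55 and 4.08 CPM in Experiment 2. Over all cells the ratio was 1.11 in Experiment 1 (95% counting interval 0.955 to 1.29) and 1.60 in Experiment 2 (1.40 to 1.83), while at the same mix of clusters, as explained below, it was 1.75 and 1.24, in the opposite order. The log2 fold change was 0.52 (SE 0.151, 95% interval 0.18 to 0.87, edgeR adjusted p = 0.0272), not called without the block (adjusted p = 0.0802), with DESeq2 (adjusted p = 0.114), in macrophage-like clusters alone (adjusted p = 0.138), without cells with epithelial or fibroblast UMIs (adjusted p = 0.0551), with free RNA removed (adjusted p = 0.137) or in any leave-one-out fit (adjusted p = 0.0772 to 0.297). Ppargc1b lies at chr18:61298136-61400431, minus strand, and holds Mir378a on the same strand. Pprc1, the third gene of the family and named after its values were seen, rose from 8.23 to 9.52 CPM and from 8.49 to 13.1 CPM (log2 fold change 0.53, edgeR adjusted p = 0.00777).

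**Figure D3:**
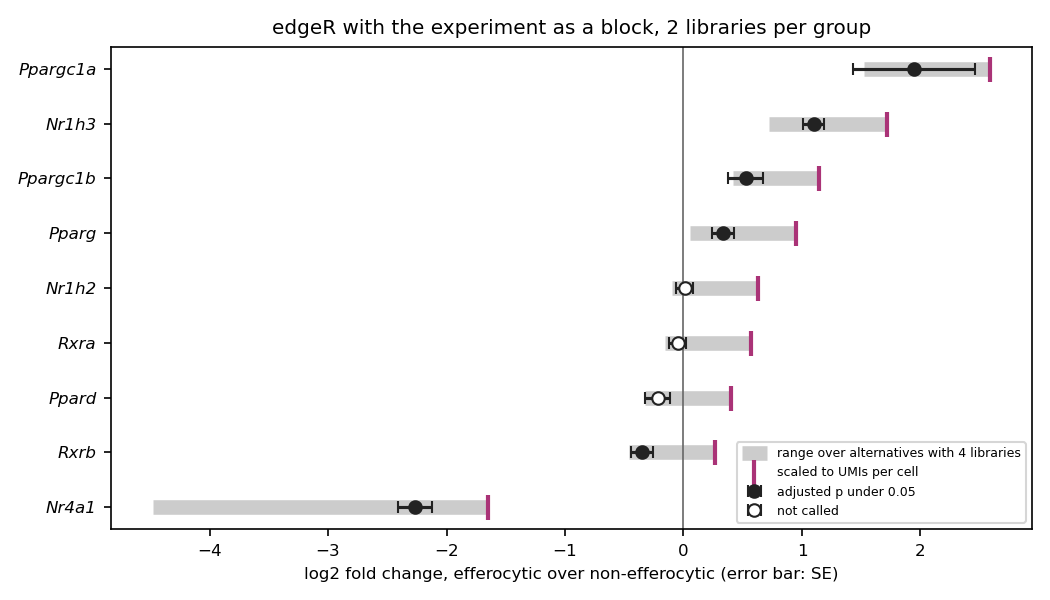
Log2 fold change of each gene, efferocytic over non-efferocytic, with its SE as error bar; filled points passed an adjusted p of 0.05, grey bars span the alternatives run on all 4 libraries, and the coloured tick is the value scaled to UMIs per cell. Nr1h3, Nr4a1, Pparg, Ppargc1a and Ppargc1b kept their sign in each alternative that tested them. Rxrb, Ppard and Rxra changed sign per cell, and Nr1h2 went either way. The far end of the Nr4a1 bar, -4.48, is the value after 10% of UMIs were removed as free RNA. That removal left no Nr4a1 UMIs in the efferocytic library of Experiment 1.

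Within clusters of like cells the genes behaved differently from each other. Cells of each experiment were clustered without the 9 genes, which gave 11 and 12 clusters, and 8 and 9 of them held at least 50 cells of each library. The clusters were strongly split by library, so these are descriptions with no test. Nr1h3 was higher in the efferocytic cells of all 8 clusters in Experiment 1 and of 8 of 9 in Experiment 2, the last being a T cell-led cluster with 0 UMIs in both. With both libraries given the same mix of clusters, its level went from 19.5 to 28.9 CPM and from 22.2 to 29.2 CPM, a ratio of 1.48 and 1.32 in place of 2.11 and 1.88 over all cells. Each cluster was weighted by the mean of its shares of UMIs in the 2 libraries, so such ratios lean on large clusters with few cells of 1 library. In Experiment 2 cluster 1 held 6459 non-efferocytic and 111 efferocytic cells, and cluster 2 104 and 4709. In Experiment 1 cluster 1 held 338 and 5238, and cluster 2 4431 and 193.

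The level of Nr1h3 also differed between clusters of 1 library. In non-efferocytic cells of Experiment 1 it was 8.93 CPM in cluster 2, led by Ier3, Hpgd and Ighm, and 45.0 CPM in cluster 8, led by Itgb7, Ifrd1 and Pdpn. In Experiment 2 it was 10.3 CPM in cluster 1, led by Hpgd and MHC class II genes, and 38.2 CPM in cluster 8, led by Cxcl3 and Prss46. Among clusters with at least 50 cells of each library, the highest efferocytic levels were in the last of these, at 55.9 CPM, and in cluster 8 of Experiment 1, at 50.3 CPM. In cycling cells (cluster 7 of both experiments, led by Hist1h2ap, Birc5 and other mitotic genes) it was 12.7 and 39.2 CPM in Experiment 1 and 12.01 and 28.3 CPM in Experiment 2. In macrophage-like clusters alone the call was lost, with a log2 fold change of 0.72 (edgeR adjusted p = 0.0920). These leave out cluster 1 of Experiment 2, which had Ccr2, a monocyte marker, among its 10 leading genes. It held 6459 non-efferocytic cells, 48.2% of that library, and each of the 9 macrophage markers was found in 46% to 100% of its cells. Cluster 2 of Experiment 1, which was also led by Hpgd and Ighm, was kept as macrophage-like. This set therefore treated the 2 experiments unlike, for each gene given in it. With cluster 1 of Experiment 2 added, the log2 fold change of Nr1h3 was 1.03 (edgeR adjusted p = 0.000617).

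Nr4a1 was lower in the efferocytic cells of 7 of 8 and of 9 of 9 clusters. At the same mix of clusters it went from 4.37 to 1.80 CPM and from 3.11 to 1.12 CPM. Ppargc1b was higher in 7 of 8 and 8 of 9 clusters. In cluster 1 of Experiment 1, with 5238 efferocytic and 338 non-efferocytic cells, the latter stood at 1.21 CPM. The counts of clusters include those of few UMIs per cell, cluster 5 of Experiment 1 and clusters 5, 6 and 11 of Experiment 2. Efferocytic cells of few-UMI clusters held 1 and 3 UMIs of Ppargc1b, and 1 and 2 of Nr4a1, in Experiments 1 and 2. Pparg showed no common direction, with 5 of 8 clusters higher in Experiment 1 and 3 of 9 in Experiment 2, and at the same mix its ratio was 0.929 and 0.852, below 1 where the libraries as a whole stood at 1.25 and 1.10. Rxrb at the same mix had ratios of 0.993 and 0.788.

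**Figure D4:**
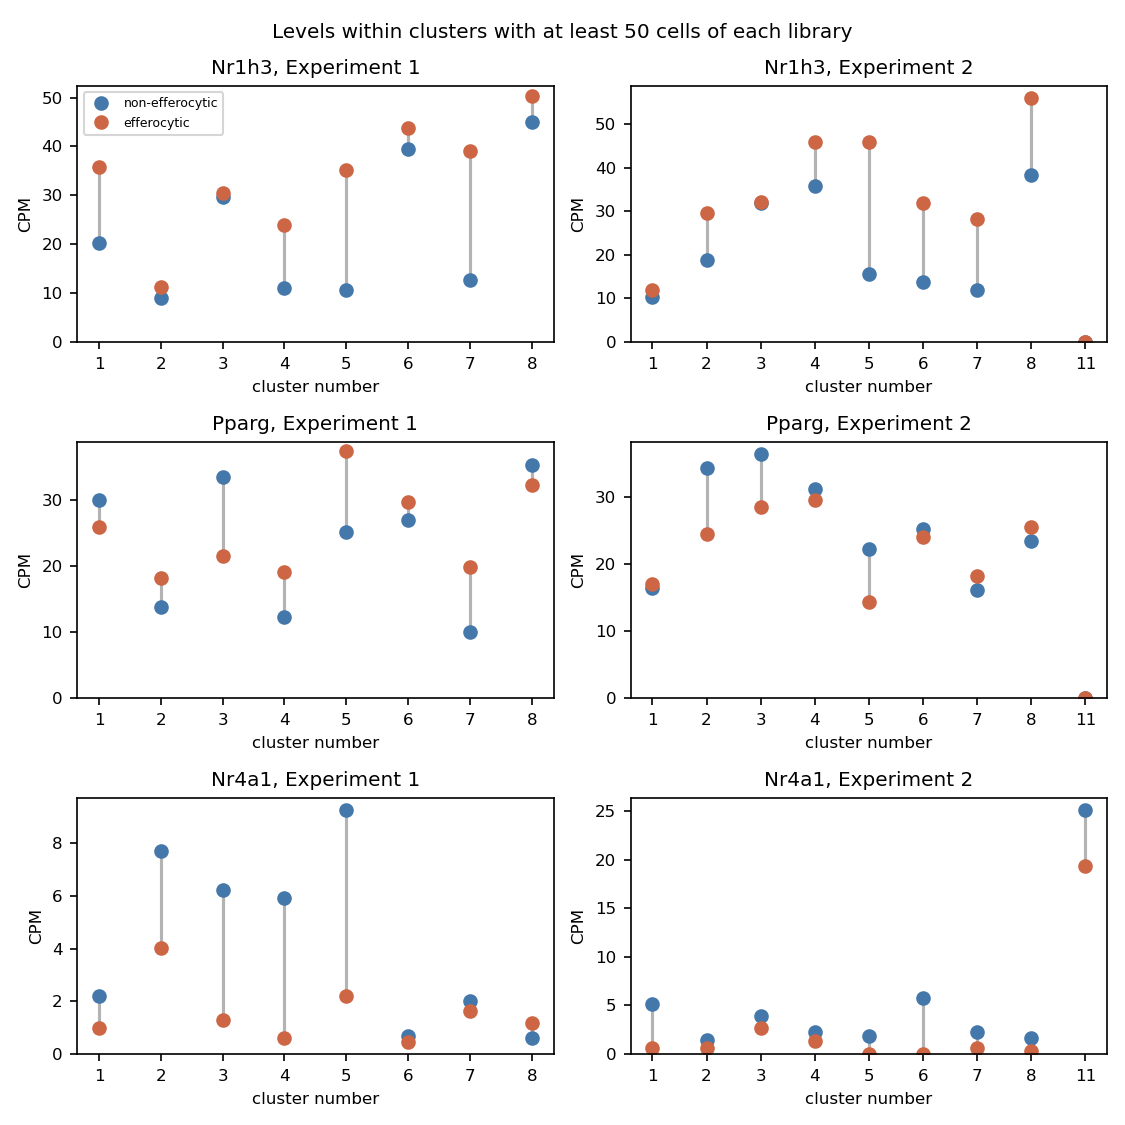
Level of Nr1h3, Pparg and Nr4a1 in CPM within each cluster that held at least 50 cells of both libraries, non-efferocytic in blue and efferocytic in orange, joined by a line; cluster numbers are given separately for each experiment. Nr1h3 was higher in the efferocytic cells of each cluster shown except cluster 11 of Experiment 2, where both were at 0; Pparg went either way; Nr4a1 was lower in all but cluster 8 of Experiment 1.

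The genes whose pattern was most like that of a member were found over 32 sums of a cluster and a library with at least 100 cells, by Pearson's r of log2(CPM + 1) among 7097 genes; the sums share libraries and depth, so r is a description. Nr1h3 was most like Plin2, which coats lipid droplets (r = 0.912), Cstb, an inhibitor of lysosomal proteases (r = 0.906), and Flrt2 (r = 0.886). Pparg was most like Atp6v0d2, a subunit of the proton pump (r = 0.830), Pik3r5 (r = 0.827) and the transcription factor gene Bhlhe41 (r = 0.808). The other members had a first neighbour at r = 0.707 (Ppard with Coq8b), 0.808 (Nr1h2 with Ric8a), 0.812 (Rxra with Kif3a) and 0.798 (Rxrb with Birc3). Nr1h3 and Pparg had r = 0.650 with each other, and Nr1h3 and Rxrb r = -0.481. Over the 20 sums with at least 200 cells the neighbours changed: those of Nr1h3 were Lat2 (r = 0.925), Ctsz (r = 0.913) and Plin2 (r = 0.903), and the first of Ppard, Rxra and Rxrb became Naaa, Rps27rt and Nbr1, while Atp6v0d2 and Ric8a stayed first for Pparg and Nr1h2.

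Known LXR targets moved in both directions. Of 18 tested, 5 rose and 7 fell, with a median log2 fold change of 0.09, where 19.9% of all genes rose and 19.0% fell. Without the block 4 rose and 1 fell, with free RNA removed 4 and 2, and in macrophage-like clusters 1 and 2. Per cell 10 rose (55.6%, against 49.9% of all genes) and 2 fell. Tgm2, a transglutaminase used in engulfment, rose by a log2 fold change of 0.71 (SE 0.0762, adjusted p = 0.000449). The phospholipid transfer gene Pltp stood at 924 and 447 CPM in Experiment 1 and at 1021 and 404 CPM in Experiment 2 (log2 fold change -1.09, SE 0.128, edgeR adjusted p = 0.000672). Apoe, which carries cholesterol out of cells, had a log2 fold change of -0.74 (SE 0.219, edgeR adjusted p = 0.0302). Per cell Apoe hardly differed in Experiment 1 (1715838 UMIs in 8280 non-efferocytic cells, 1385780 in 6695 efferocytic). It was lower per cell in Experiment 2 (2129838 in 13411, then 1132148 in 8408). The sterol pumps, named after their values were seen, parted: Abca1 was called lower, at -0.39 (adjusted p = 0.0170; 0.23 per cell), and Abcg1 higher, at 0.47 (adjusted p = 0.0422). Abcg1 stood at 155 and 248 CPM in Experiment 1 but at 200 and 208 CPM in Experiment 2, so its difference lay mostly in Experiment 1.

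Of 21 PPAR targets tested, 13 rose and 3 fell, against 19.9% and 19.0% of all genes, with a median log2 fold change of 0.38; 11 rose and 1 fell without the block, where 9.27% of all genes rose, and in macrophage-like clusters 4 of 19 rose (21.1%), where 4.32% did. Cd36, the fatty acid and oxidised lipid receptor, went from 476 to 1440 CPM in Experiment 1 and from 556 to 1669 CPM in Experiment 2 (log2 fold change 1.70, SE 0.122, adjusted p = 9.4e-05). The fatty acid carrier Fabp4 (1.59, SE 0.205, adjusted p = 0.000985) and the lipid droplet gene Plin2 (1.39, SE 0.140, adjusted p = 0.000339) also rose. The 3 that fell were Olr1, Pdk4 and Cd52, the first 2 of them under 1 CPM in every library.

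Among 17 tested partners and targets of PGC-1, 5 rose and 2 fell, with a median of 0.14; 29.4% had risen, against 19.9% of all genes. Per cell 14 rose (82.4%, against 49.9%), and without the block 3 rose and none fell. Among those that rose were Cycs (cytochrome c, log2 fold change 0.92, SE 0.0858), Idh3a of the citrate cycle (0.83, SE 0.117) and Atp5b of the ATP synthase (0.57, SE 0.0965). Tfam, which maintains mitochondrial DNA, was not called.

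Of 20 coactivators and corepressors, 2 rose and 7 fell (19.9% and 19.0% of all genes) on the scale of the typical gene, with a median of -0.09, while per cell 9 rose (45.0%, against 49.9% of all genes) and none fell. Without the block none rose and 1 fell, with DESeq2 1 rose and 2 fell, and with free RNA removed none rose and 3 fell. Lpin1, a phosphatase that also assists PGC-1α, fell from 52.3 to 34.3 CPM and from 53.3 to 31.1 CPM (log2 fold change -0.59, SE 0.0857, adjusted p = 0.00169; 0.03 per cell). The coactivator Ncoa3 and the corepressor Nrip1 each had -0.34 (0.28 for both per cell). Of 16 tested relatives among the nuclear receptors, 2 rose (12.5%, against 19.9% of all genes) and 6 fell (37.5%, against 19.0%). Per cell 5 of them rose (31.25%, against 49.9%) and 1 fell, and without the block none rose and 5 fell. Their median log2 fold change was -0.25 (0.37 per cell). Esrra, an orphan receptor that works with PGC-1, stood at 0.32 (SE 0.0806) and Nr2c2 at -0.33 (SE 0.0806, 0.29 per cell).

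Of 13 tested genes for making ligands, 1 rose (7.69%, against 19.9% of all genes) and 3 fell (23.1%, against 19.0%), with a median of -0.59. Without the block 1 rose and 1 fell; per cell 3 rose and 1 fell with a median of 0.045, and in macrophage-like clusters the median was -0.046. Cyp27a1, which makes a hydroxycholesterol that activates LXR, fell from 56.0 to 21.9 CPM in Experiment 1 and from 47.9 to 13.4 CPM in Experiment 2 (log2 fold change -1.49, SE 0.127, edgeR adjusted p = 0.000167), and fell per cell too, by 0.87. Hpgds, a prostaglandin D synthase, rose by 0.60 (SE 0.0869, adjusted p = 0.00164).

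**Figure D5:**
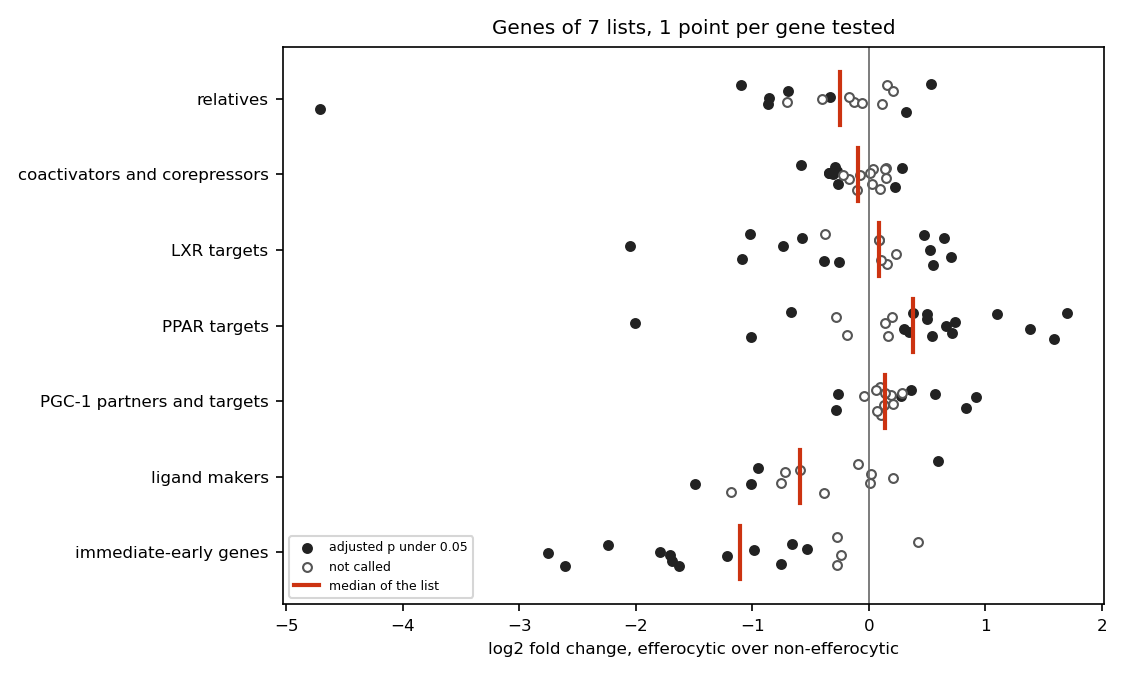
Log2 fold change of every gene tested in 7 lists, 1 point per gene, filled where the adjusted p was under 0.05, with the median of each list as a red bar; the vertical position within a list carries no meaning. Immediate-early genes lay mostly below 0 with a median of -1.10, PPAR targets mostly above with 0.38, and LXR targets on both sides with 0.09.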

How the data were processed

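The authors deposited raw UMI count matrices per gene and barcode of 4 libraries, mapped to mm10 with Cell Ranger (3.0.0 in the submitters' processing notes, 3.1.0 in headers of Experiment 2). A barcode counted as a cell with 1000 UMIs or more, 200 genes or more and no more than 10% of UMIs from mitochondrial genes, the limits the study states. They kept more cells in each library than the study lists. Cell calling in the manner of Cell Ranger, an alternative, left 7549, 6158, 10615 and 7921 cells. Counts of cells (101216659, 124997895, 138349389 and 155224183 UMIs per library) were summed and tested in R 4.3.3 with edgeR 4.0.16 (TMM, filterByExpr, Benjamini-Hochberg), with DESeq2 1.42.0 as an alternative. The SE is the log2 fold change over the square root of F. A count of 0 allows up to 3 counts.

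The experiment was a block in the fit, and libraries of 1 experiment deviated together (r = 0.672 across 7097 genes). The edgeR script was tested on simulated data.

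Clusters came from Leiden at resolution 0.5 (leidenalg 0.10.2) on 20 principal components of 5000 genes, and were named from fixed markers. Doublets (523, 355, 1282 and 457 cells) were kept, and removed in an alternative. The authors' own integration was not repeated.

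The members and lists were chosen with earlier results of these data known. The text names the 9 genes, the 3 largest changes in each list (called, 10 CPM or more on average, 1 direction in both experiments) and, of the 3 genes most like each member of at least 10 CPM, all for Nr1h3 and Pparg and the first for the others. There is 1 gene chosen by this rule that is not reported here. Other alternatives changed the scaling, filters, cells, block or libraries. Sequences are from RefSeq.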

Additional observations from a re-analysis of the deposited data

Results flagged for a closer look

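Nr4a1 was found in barcodes with under 100 UMIs, which were not used as cells, at levels above those in cells. These barcodes held 54.3 CPM of Nr4a1 in the non-efferocytic library of Experiment 1 (362 UMIs, against 6.47 CPM in cells), 51.9 CPM in the efferocytic library of Experiment 1 (284 UMIs, against 1.11 CPM) and 6.84 CPM in the efferocytic library of Experiment 2 (39 UMIs, against 0.992 CPM). The non-efferocytic library of Experiment 2 was at 6.27 CPM (45 UMIs) and was nearer to its cells at 4.58 CPM. Barcodes of so few UMIs hold mostly free RNA, and those of Experiment 1 also held Col2a1, a cartilage collagen chosen after its values were seen, at 1943 and 2351 CPM against 1.14 and 0.344 CPM in cells. In Experiment 2 they held the globin Hbb-bs at 6927 and 8255 CPM against 32.2 and 33.5 CPM in cells. Removing 10% of the UMIs of each library in this profile moved the log2 fold change of Nr4a1 from -2.27 to -4.48. In the efferocytic library of Experiment 1 the amount removed exceeded the 139 Nr4a1 UMIs in cells, so none were left. The size of that change is therefore not a measure of the fall without free RNA. The 10% was a fixed share, not an estimate. It also exceeded what cells held of Col2a1 in Experiment 1 and of Hbb-bs in Experiment 2. The part of these barcodes in the level of Nr4a1 was otherwise not tested.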

How the results depend on the processing

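Over the alternatives with all 4 libraries, 99 log2 fold changes of the 9 genes kept their direction and their side of the threshold, 18 lost the call, 3 gained it and 10 changed sign. Of the changes of sign, scaling to UMIs per cell gave 0.40 for Ppard, 0.57 for Rxra and 0.27 for Rxrb, and macrophage-like clusters gave 0.068 for Rxra. Nr1h2 turned to -0.10 with library totals, -0.085 at a mean of at least 10 CPM, -0.017 in macrophage-like clusters, -0.028 with the cluster of 1 monocyte marker added, -0.023 without cells with epithelial or fibroblast UMIs and -0.0073 with free RNA removed. The set with the cluster of 1 monocyte marker, the set without epithelial or fibroblast UMIs and the set without shared barcodes were chosen after seeing the data.

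Without the replicate block 1 member was called higher and 1 lower, in place of 4 and 2, and 12 genes of the 7 lists were called lower in place of 40. Members called higher numbered 1 with DESeq2, at a mean of at least 10 CPM and with free RNA removed, and 0 in macrophage-like clusters. Members called lower numbered 1 per cell, in macrophage-like clusters and with free RNA removed. Genes of the lists called higher were 28, and 58 per cell and 8 in macrophage-like clusters. Those called lower were 26 with DESeq2, 13 per cell, 18 in macrophage-like clusters and 15 with free RNA removed. With 1 library left out, which was fitted without the block, members called higher ranged from 0 to 1 and lower from 0 to 2, and genes of the lists higher from 0 to 19 and lower from 0 to 20; the log2 fold change ranged from -0.052 to 0.087 for Nr1h2 and from -0.285 to 0.20 for Rxra. All genes called by edgeR were 5397, and 2358 without the block, 3389 with DESeq2, 7507 per cell, 1168 in macrophage-like clusters, 2473 with free RNA removed, and 2, 2933, 0 and 1204 with each library left out in turn. Of the 9 genes, 8 had a higher share of cells with a UMI in both efferocytic libraries. Among cells with at least 5000 UMIs, thinned to 5000, 4 did. The highest over the lowest Nr1h3 level among cluster sums was 10.6, and 6.26 with at least 200 cells. A level under 0.0296 CPM is below the 3 counts that a 0 allows in the shallowest library.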

Other observations

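Nr1h3 stood at 2.27 and 4.13 CPM in the neutrophil lineage-like cells of Experiment 1 (75 non-efferocytic and 24 efferocytic cells) and at 5.29 and 6.79 CPM in those of Experiment 2 (192 and 48 cells), on 2 to 12 UMIs per library. Nr4a1 stood at 12.9 and 14.1 CPM in these cells of the non-efferocytic libraries (6.33 and 3.63 CPM in macrophage-like cells) and at 2.06 CPM (1 UMI) and 13.6 CPM (8 UMIs) in those of the efferocytic libraries. These cells of the non-efferocytic libraries held 17 of its 655 UMIs in Experiment 1 and 32 of 634 in Experiment 2. In fibroblast-like cells, led by Col1a1 and Col1a2, Nr1h3 stood at 6.05 and 13.5 CPM in Experiment 1 and at 3.45 and 11.5 CPM in Experiment 2, on 4 to 10 UMIs each. Of the other members, Nr1h2 stood at 44.1 to 59.1 CPM in neutrophil lineage-like cells (45.2 to 51.8 CPM in macrophage-like cells), Rxrb at 26.9 to 44.1 CPM in neutrophil lineage-like cells, and Ppard at 12.9 to 43.7 CPM in fibroblast-like cells (10.7 to 13.9 CPM in macrophage-like cells).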
